A study of Homo sapiens with 11 samples.

Results

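Interferon regulatory factors (IRFs) and signal transducers and activators of transcription (STATs) were followed in MDA-MB-468, a triple-negative human breast cancer line grown as a single cell type in culture. The genes were IRF1, IRF2, IRF3, IRF7, IRF9, STAT2, STAT3 and STAT5A, chosen by symbol. A gene was read through probe sets that the array's annotation pairs with exactly 1 gene symbol, and where a gene had several, through the one that was brightest on average. By this rule 7 of the 8 genes were analysed, out of 22395 genes read the same way, and STAT2 was not analysed here. All 7 passed the filter on low values that left 15865 genes tested. Each array of the series holds RNA of cells after 24 h in 1 of 4 conditions. These were tumour necrosis factor (TNF, 40 ng/ml) plus apigenin (40 µM) on 3 arrays, TNF (40 ng/ml) alone on 3 arrays, apigenin (40 µM) alone on 2 arrays, and neither agent (control) on 3 arrays. TNF is a cytokine of inflammation whose receptors activate NF-kB, and apigenin is a plant flavone. The labels do not say whether the arrays of a group came from separate cultures, so the p-values reflect array-to-array spread alone, and that spread may be technical. In bulk RNA of this kind, fewer cells expressing a gene and less RNA per cell cannot be told apart.

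As background, interferons bind receptors at the cell surface and switch on the kinases JAK1, JAK2 and TYK2. Type I interferon then acts through ISGF3, a complex that contains STAT2 and IRF9 and binds the interferon-stimulated response element (ISRE). Interferon gamma acts at the gamma-activated site (GAS), and one of the genes induced this way is IRF1, which TNF also induces through NF-kB. IRF3 and IRF7 are activated by phosphorylation after viral nucleic acid is sensed and start interferon transcription. STAT3 carries signals of interleukin 6 family cytokines, and STAT5A those of prolactin and growth factors. Much of the activity of these proteins is set by phosphorylation, which an RNA array does not measure.

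The promoters of IRF1 and IRF9 are shown because IRF1 had the largest positive log2 change among the 7 genes and IRF9 was the only one past the test. Promoters of 4 of the 7 genes matched by symbol in the RefSeq sequences of build GRCh38.p14 (IRF1, IRF9, STAT3 and STAT5A). Each run below is the 250 bases before the annotated start, read 5′ to 3′ along the gene, and capitals mark matches to the kappa B (NF-kB) or GAS letters. The IRF1 promoter lies at chr5:132490774-132491023 on the minus strand and that of IRF9 at chr14:24161015-24161264 on the plus strand.
IRF1: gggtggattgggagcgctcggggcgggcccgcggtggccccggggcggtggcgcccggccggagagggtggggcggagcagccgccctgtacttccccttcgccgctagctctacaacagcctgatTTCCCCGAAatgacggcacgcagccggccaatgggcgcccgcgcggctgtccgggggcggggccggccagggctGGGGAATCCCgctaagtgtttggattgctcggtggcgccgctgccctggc
IRF9: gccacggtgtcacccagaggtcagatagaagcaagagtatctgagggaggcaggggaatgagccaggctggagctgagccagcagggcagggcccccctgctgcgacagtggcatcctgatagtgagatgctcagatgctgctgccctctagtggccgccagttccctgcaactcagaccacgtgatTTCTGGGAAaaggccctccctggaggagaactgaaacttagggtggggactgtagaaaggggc
Both strands were searched for the GAS letters TTCNNNGAA, the ISRE letters GAAANNGAAA and the kappa B consensus, which is given by name. In IRF1 the GAS match TTCCCCGAA ran from base 124 to base 116 before the start, and the kappa B match GGGGAATCCC from base 50 to base 41, without overlap. In IRF9 the GAS match TTCTGGGAA ran from base 63 to base 55 before the start. The ISRE letters were not found in either window. Among 35116 promoters of the same length, 6.57% held the GAS letters, 3.02% the ISRE letters and 5.21% the kappa B consensus, and a match describes letters only. STAT3 had no match to any of the 3 motifs, and of the 3 STAT5A promoters 1 held a kappa B match.

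All levels below are the deposited log2 values, and levels of different genes are not compared because their probes differ. No separate measure of background was used. The median of all probe set means was 2.53, and a level near that median is taken here as close to background. Epithelial markers were well above it, with EPCAM at a mean of 9.15 and EGFR at 10.79, whereas ESR1 (2.35) and PGR (1.49), which encode the hormone receptors that triple-negative cells lack, lay under it. Of the 27 other cell type markers measured, 5 (CSF1R, CD8A, CD79A, COL1A1 and KDR) were above the median on all 11 arrays. The means of these 5 ran from 3.3 (CD79A) to 4.27 (CSF1R). Array apigenin 1 stood apart, with a median over tested genes of 3.89 and an interquartile range of 2.4, against 4.08 to 4.32 and 2.63 to 2.91 on the other 10 arrays. Correlations between arrays of a group were 0.969 to 0.987. Over all tested genes the median log2 change lay at -0.177 when apigenin was set against control, at 0.162 when TNF plus apigenin was set against apigenin, and at 0.226 in the interaction. In the other 3 comparisons it was within 0.05 of 0. For this reason some results that involve apigenin alone are also given after every array was shifted to the same median.

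Few of the 7 genes passed the test (limma, adjusted p under 0.05). IRF9 fell with apigenin against control and with TNF plus apigenin against control, and no gene of the 7 rose. For TNF against control 0 of 7 passed, where 0.473% of all tested genes were called higher and 0.227% lower, and 0 of the 7 had an unadjusted p under 0.05. For apigenin against control 1 of 7 was lower, where 0.221% of all genes were called higher and 3.44% lower. For TNF plus apigenin against control 1 of 7 was lower, beside 1.04% of all genes higher and 1.78% lower. For TNF plus apigenin against TNF 0 of 7 passed, with 2 at an unadjusted p under 0.05, beside 0.384% of all genes higher and 0.681% lower. For TNF plus apigenin against apigenin 0 of 7 passed, again with 2 at an unadjusted p under 0.05, beside 0.529% higher and 0.0441% lower. For the interaction, which is the response to TNF in the presence of apigenin less that in its absence, 0 of 7 passed and 0 had an unadjusted p under 0.05, beside 0.0126% of all genes called in each direction. An unadjusted p under 0.05 was also found for 2 of 7 with apigenin and 3 of 7 with TNF plus apigenin against control. Over all genes that share was 7.41% with TNF, 19.5% with apigenin and 15.9% with TNF plus apigenin, each against control. It was 11.1% for TNF plus apigenin against TNF, 15.7% against apigenin and 8.16% for the interaction. Of the genes called for apigenin against control, 94% were lower on the deposited values, 75.5% after quantile normalization and 70.7% after the median shift. The share called lower was 7.69%, 18.8% and 19.5% under the same 3 scalings where TNF plus apigenin was compared with apigenin, and 50%, 57.1% and 70% in the interaction.

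**Figure D1:**
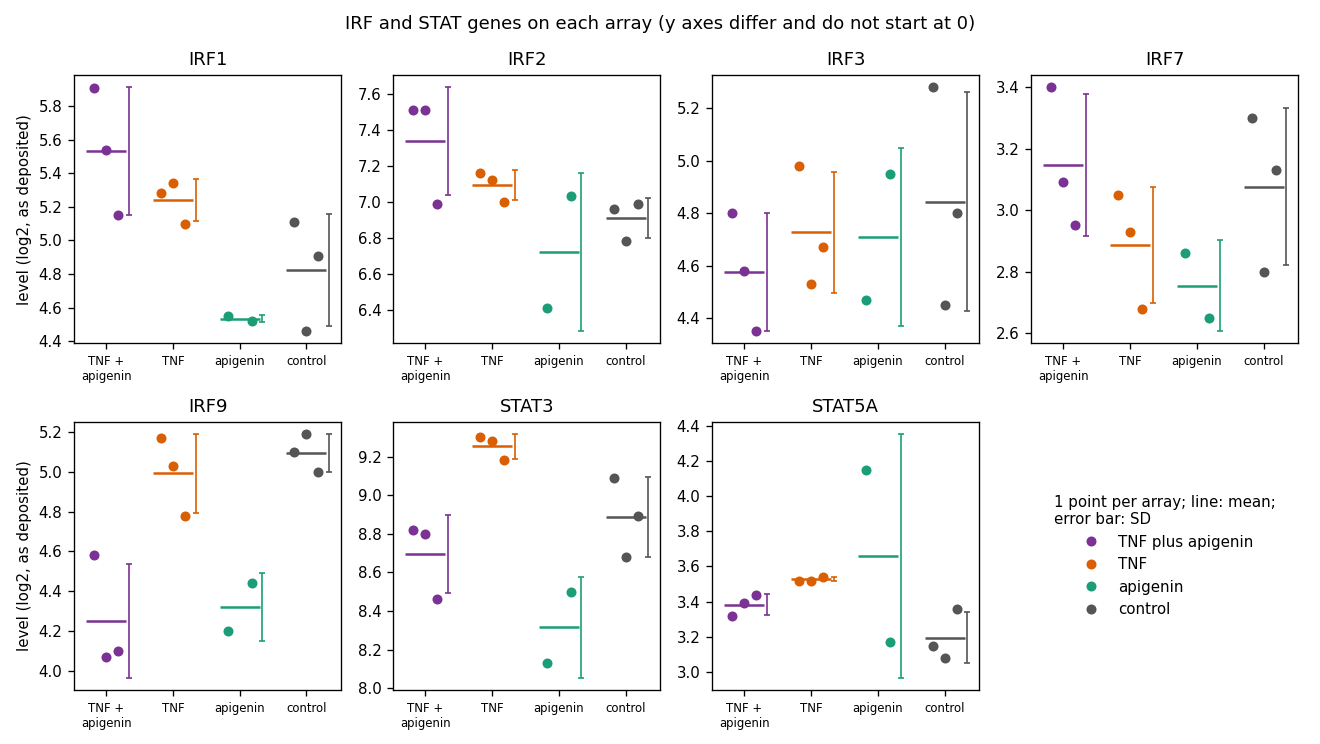
Deposited log2 level (y axis, a scale of its own per gene) of the 7 IRF and STAT genes on each of 11 arrays, by group (x axis). Points are arrays, horizontal lines group means and error bars SDs. The IRF9 arrays with apigenin, alone or with TNF, sit between 4.07 and 4.58, under the TNF and control arrays at 4.78 to 5.19.

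IRF9, the DNA-binding subunit of ISGF3, was lower in both conditions with apigenin. Its level was 4.58, 4.07 and 4.1 on the TNF plus apigenin arrays, 5.17, 5.03 and 4.78 on the TNF arrays, 4.2 and 4.44 on the apigenin arrays, and 5.1, 5.19 and 5 on the control arrays. Every array with apigenin lay under every array without it, while the apigenin arrays lay within the range of TNF plus apigenin and the TNF and control arrays overlapped. IRF9 averaged 4.25 ± 0.28 with TNF plus apigenin and 5.1 ± 0.09 in control (SD, n = 3 each), a log2 change of -0.85 (SE 0.18, 95% interval -1.24 to -0.46, 1.8-fold lower, adjusted p = 0.0217). With apigenin alone it averaged 4.32 ± 0.17 (SD, n = 2), -0.78 against control (SE 0.21, 1.72-fold lower, adjusted p = 0.0496). TNF plus apigenin differed from TNF (4.99 ± 0.19) by -0.74 (SE 0.18, adjusted p = 0.0741), which did not pass. TNF alone differed from control by -0.11 (95% interval -0.5 to 0.29, adjusted p = 0.971), and the interaction was 0.04 (interval -0.55 to 0.63). The order of group means was TNF plus apigenin, apigenin, TNF and control from low to high, and the arrays overlapped within the lower pair and within the upper pair.

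The IRF9 result rests on 1 of 2 probe sets. The other IRF9 probe set read 3.98, 4 and 3.66 on the TNF plus apigenin arrays, 3.8, 3.98 and 3.99 on the TNF arrays, 3.3 and 4.46 on the apigenin arrays, and 3.8, 3.94 and 3.98 on the control arrays. Its groups overlapped in every comparison, and its log2 change was -0.03 for both TNF plus apigenin and apigenin against control (SE 0.24 and 0.27, adjusted p = 0.978 and 0.97). Over the 11 arrays the correlation between both IRF9 probe sets was 0.18. With their mean in place of the brighter one, IRF9 changed by -0.44 for TNF plus apigenin against control (adjusted p = 0.27) and by -0.4 for apigenin against control (adjusted p = 0.314), and neither passed. Which IRF9 transcripts or exons the probe sets match was not analysed here.

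**Figure D2:**
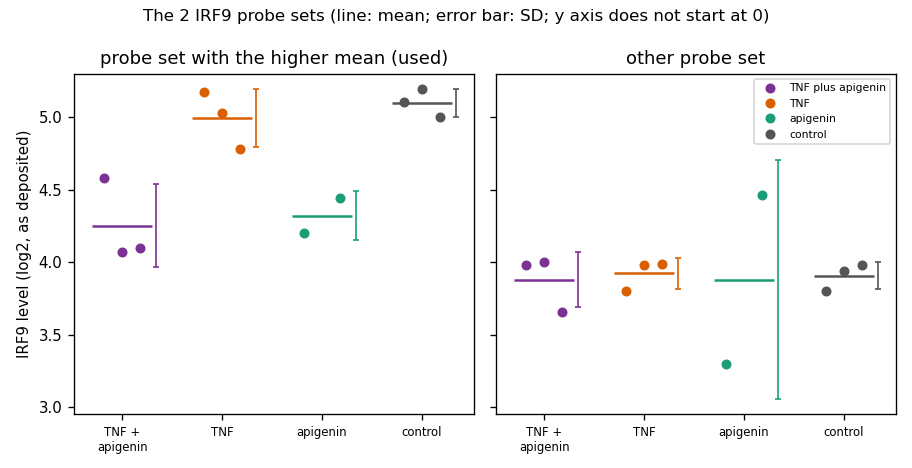
Deposited log2 level (y axis) of the 2 IRF9 probe sets on each array, by group (x axis). Points are arrays, lines means and error bars SDs. The brighter probe set separates arrays with apigenin from those without, and the other probe set, at 3.3 to 4.46, does not.

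The apigenin call on the brighter IRF9 probe set was close to the threshold and depended on the arrays used. It passed in 2 of 11 fits that each left out 1 array, with changes of -0.9 to -0.66, and was -0.66 without apigenin 1 (adjusted p = 0.307) and -0.9 without apigenin 2 (adjusted p = 0.0457). After the median shift of each array the IRF9 change was -0.57 (adjusted p = 0.119) and after quantile normalization -0.58 (adjusted p = 0.0909). The call for TNF plus apigenin against control passed in 6 of 11 such fits, with changes of -1.01 to -0.76 and adjusted p between 0.0143 and 0.113. It was lost without control 1, control 2, control 3, TNF plus apigenin 2 or TNF plus apigenin 3, and it stood after the median shift (-0.85, adjusted p = 0.0104) and quantile normalization (-0.88, adjusted p = 0.00674). For IRF9, TNF plus apigenin against TNF passed after quantile normalization (-0.8, adjusted p = 0.0171), the median shift (-0.79, adjusted p = 0.0237) and with array weights (-0.71, adjusted p = 0.0397).

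IRF1, a transcription factor that induces antigen presentation and guanylate-binding protein genes, was highest with TNF plus apigenin. Its level was 5.91, 5.54 and 5.15 on the TNF plus apigenin arrays, 5.28, 5.34 and 5.1 on the TNF arrays, 4.55 and 4.52 on the apigenin arrays, and 5.11, 4.46 and 4.91 on the control arrays. All TNF plus apigenin arrays lay above all control arrays and all apigenin arrays, whereas the TNF arrays overlapped with control through TNF 3 and control 1. IRF1 averaged 5.53 ± 0.38 with TNF plus apigenin and 4.54 ± 0.02 with apigenin (SD, n = 3 and 2), a log2 change of 1 (SE 0.24, 95% interval 0.49 to 1.5, 1.99-fold, adjusted p = 0.0799) that did not pass. Against control (4.83 ± 0.33) the change with TNF plus apigenin was 0.71 (SE 0.21, adjusted p = 0.097). It passed after quantile normalization (0.69, adjusted p = 0.0248), the median shift (0.71, adjusted p = 0.0292) and with array weights (0.7, adjusted p = 0.0246). With single control or TNF plus apigenin arrays left out, this change ran from 0.52 to 0.9 and did not pass. It was 0.52 without control 2 (adjusted p = 0.303) or TNF plus apigenin 1 (adjusted p = 0.294), and 0.9 without TNF plus apigenin 3 (adjusted p = 0.0581).

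The TNF arrays of IRF1 averaged 5.24 ± 0.13 (SD, n = 3), 0.42 above control (95% interval -0.04 to 0.87, adjusted p = 0.734), and apigenin alone differed from control by -0.29 (interval -0.8 to 0.22), or by -0.08 after the median shift. The interaction for IRF1 was 0.58 (interval -0.11 to 1.26, adjusted p = 0.625), and 0.32 after the median shift and 0.3 after quantile normalization. From low to high the means ran apigenin, control, TNF and TNF plus apigenin, and the arrays of each neighbouring pair overlapped. After the median shift the TNF plus apigenin change against apigenin was 0.79 (adjusted p = 0.099).

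IRF2, which shares binding sites with IRF1 and can repress interferon genes, ran in the same direction as IRF1 with smaller steps. Its level was 7.51, 7.51 and 6.99 on the TNF plus apigenin arrays, 7.16, 7.12 and 7 on the TNF arrays, 6.41 and 7.03 on the apigenin arrays, and 6.96, 6.78 and 6.99 on the control arrays. TNF plus apigenin overlapped with TNF, apigenin and control through its array 3, and the TNF arrays lay just above control. The lowest IRF2 reading within the apigenin group was on apigenin 1 (array median 3.89), and that within TNF plus apigenin on its array 3 (array median 4.08). Whether the array medians account for these readings was not tested. Less the array's own median, IRF2 stood at 3.2, 3.2 and 2.91 on the TNF plus apigenin arrays and 3, 2.87 and 2.86 on the TNF arrays. It stood at 2.52 and 2.87 on the apigenin arrays, and 2.65, 2.67 and 2.7 on the control arrays.

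The IRF2 change with TNF plus apigenin was 0.43 against control (SE 0.2, adjusted p = 0.313) and 0.62 against apigenin (SE 0.22, adjusted p = 0.209), and neither passed. The change against apigenin was 0.31 without apigenin 1 (adjusted p = 0.864), 0.92 without apigenin 2 (adjusted p = 0.0528) and 0.41 after the median shift. After quantile normalization the change against control was 0.48 and passed (adjusted p = 0.0264). That change did not pass after the median shift (0.43, adjusted p = 0.0934) or with array weights (0.48, adjusted p = 0.0721). IRF2 averaged 7.34 ± 0.3, 7.09 ± 0.08, 6.72 ± 0.44 and 6.91 ± 0.11 with TNF plus apigenin, TNF, apigenin and control (SD, n = 3, 3, 2 and 3), and no neighbouring pair in the order of means passed the test. For apigenin against control the sign turned with the scaling, at -0.19 on the deposited values, 0.02 after the median shift and 0.13 after quantile normalization.

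IRF3 and IRF7, which start interferon transcription after nucleic acid sensing, gave no call. IRF3 read 4.8, 4.58 and 4.35 with TNF plus apigenin, 4.98, 4.53 and 4.67 with TNF, 4.47 and 4.95 with apigenin, and 5.28, 4.45 and 4.8 in control. The IRF3 groups overlapped in every pair. Its largest change was -0.26 for TNF plus apigenin against control (95% interval -0.75 to 0.22, adjusted p = 0.633), and for apigenin against control it was -0.13 on the deposited values, 0.08 after the median shift and 0.1 after quantile normalization. IRF7 read 3.4, 3.09 and 2.95 with TNF plus apigenin, 3.05, 2.93 and 2.68 with TNF, 2.86 and 2.65 with apigenin, and 3.3, 2.8 and 3.13 in control. These IRF7 levels lay close to the background of 2.53, and the groups overlapped except that TNF plus apigenin lay above apigenin (0.39, interval -0.06 to 0.84, adjusted p = 0.386, or 0.18 after the median shift). The interaction for IRF7 was 0.58 (unadjusted p = 0.0603, adjusted p = 0.613), and 0.32 after the median shift (SE 0.24, adjusted p = 0.815). Its means from low to high ran apigenin, TNF, control and TNF plus apigenin for IRF7, and TNF plus apigenin, apigenin, TNF and control for IRF3, and the arrays of neighbouring groups overlapped in both genes.

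STAT3, the main transcription factor of interleukin 6 family signalling, was highest with TNF and lowest with apigenin. Its level was 8.82, 8.8 and 8.46 on the TNF plus apigenin arrays, 9.3, 9.28 and 9.18 on the TNF arrays, 8.13 and 8.5 on the apigenin arrays, and 9.09, 8.68 and 8.89 on the control arrays. All TNF arrays lay above all others, and both apigenin arrays lay under all control arrays. STAT3 averaged 8.69 ± 0.2 with TNF plus apigenin and 9.26 ± 0.07 with TNF (SD, n = 3 each), a log2 change of -0.56 (SE 0.18, 95% interval -0.94 to -0.18, 1.48-fold lower, adjusted p = 0.201). This did not pass on the deposited values and passed after quantile normalization (-0.54, adjusted p = 0.0358) and the median shift (-0.61, adjusted p = 0.0203).

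Apigenin alone gave STAT3 8.31 ± 0.27 (SD, n = 2), against 8.89 ± 0.2 in control (SD, n = 3), a change of -0.57 (SE 0.2, unadjusted p = 0.0122, adjusted p = 0.128), or -0.36 after the median shift. TNF against control was 0.37 (interval -0.01 to 0.75, adjusted p = 0.696), and TNF plus apigenin against control -0.19 (interval -0.58 to 0.19). Between TNF plus apigenin and apigenin it was 0.38 (adjusted p = 0.372), or 0.17 after the median shift and 0.19 without apigenin 1, and the interaction was 0.01 (interval -0.56 to 0.58). The sign of that interaction turned to -0.25 after the median shift and -0.21 after quantile normalization. From low to high the STAT3 means ran apigenin, TNF plus apigenin, control and TNF, and no neighbouring pair passed the test.

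STAT5A, which carries prolactin signals in mammary epithelium, had an apigenin mean that depended on 1 array. It read 3.32, 3.39 and 3.44 with TNF plus apigenin, 3.52, 3.52 and 3.54 with TNF, 4.15 and 3.17 with apigenin, and 3.15, 3.08 and 3.36 in control. The value of 4.15 is from apigenin 1, the array that stood apart, and the other 10 arrays lay between 3.08 and 3.54. These 10 readings of STAT5A lay not far above the background of 2.53. Apigenin against control was 0.46 (SE 0.24, adjusted p = 0.301) and 0.67 after the median shift, but 0.95 without apigenin 2 (adjusted p = 0.022) and -0.03 without apigenin 1. The TNF arrays lay above control by 0.33 (interval -0.12 to 0.78, adjusted p = 0.835), and TNF plus apigenin lay 0.14 under TNF (adjusted p = 0.88) with groups that did not overlap. STAT5A and STAT5B are close paralogues, and whether their probe sets share sequence was not analysed here. The STAT5A means from low to high were 3.2 ± 0.15 in control, 3.38 ± 0.06 with TNF plus apigenin, 3.53 ± 0.01 with TNF and 3.66 ± 0.69 with apigenin (SD, n = 3, 3, 3 and 2). None of these neighbours passed the test where they were compared, and TNF against apigenin was not.

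**Figure D3:**
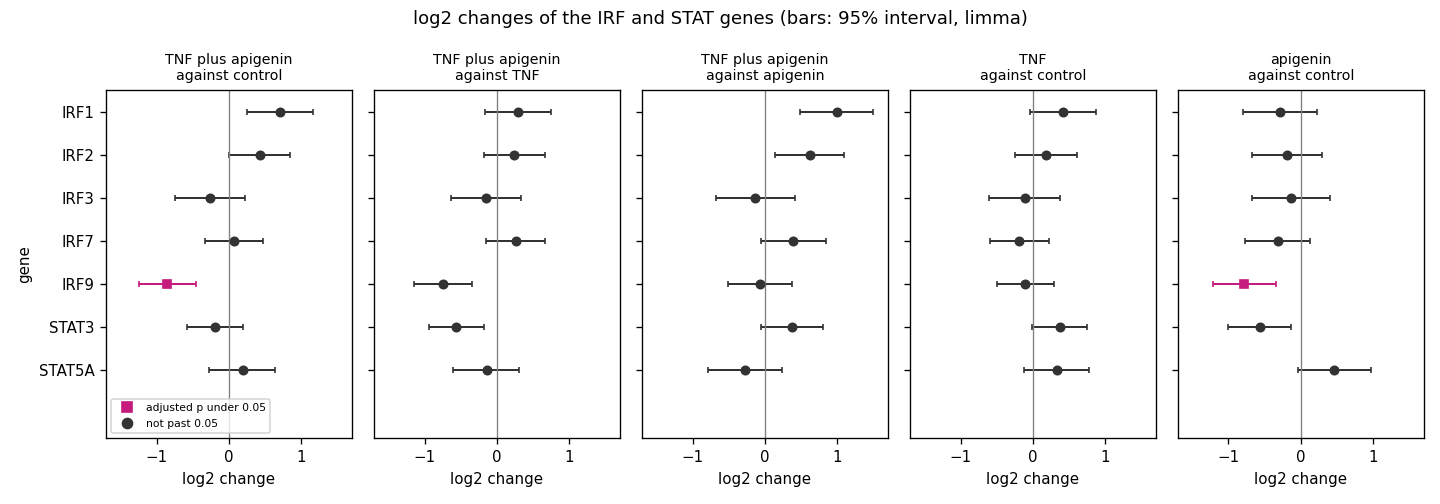
log2 change (x axis) of each of the 7 genes (y axis) in 5 comparisons, with 95% intervals from limma. Squares mark an adjusted p under 0.05. IRF9 is the only square, at -0.85 for TNF plus apigenin against control and -0.78 for apigenin against control.

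**Figure D4:**
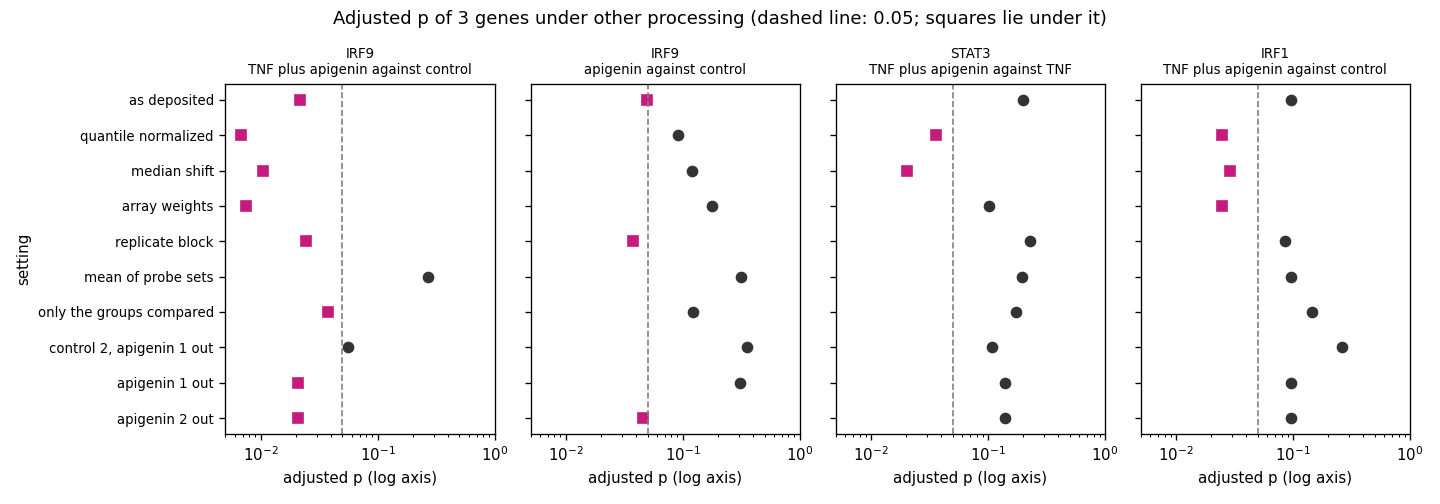
Adjusted p (x axis, log scale) of IRF9, STAT3 and IRF1 in 4 comparisons under 10 settings (y axis), with a dashed line at 0.05. The IRF9 value for TNF plus apigenin against control is 0.0217 on the deposited values and 0.27 with the mean of its probe sets, and that of STAT3 against TNF is 0.201 and 0.0358 after quantile normalization.

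The 7 genes did not share 1 pattern over the arrays. After the median shift, the highest correlation between any pair over the 11 arrays was 0.77, for IRF1 and IRF2, followed by 0.64 for IRF9 and STAT3, and the lowest was -0.47, for IRF2 and IRF9. These values, and the next, describe arrays that share 4 groups. The genes most like each one by the same measure, over the 11 arrays, were CCDC174 (0.935), LYSMD4 (0.933) and BIRC2 (0.93) for IRF1, and GPBP1 (0.957), PRPF39 (0.951) and NPAT (0.948) for IRF2. For IRF3 they were MAP7D2 (0.91), KCNJ14 (0.897) and PLEC (0.892), and for IRF7 NCBP2AS2 (0.883), CNIH1 (0.858) and MIR877 (0.842). For IRF9 they were KPNA2, PSMC3 and UFC1, each at 0.956, for STAT3 OLFM4 (0.989), GPRC5B (0.986) and MSN (0.98), and for STAT5A MIR4317 (0.957), TMEM52 (0.945) and USHBP1 (0.927). Among other genes of both families, IRF5, STAT5B and STAT6 were tested and 0 of 3 passed in each of the 6 comparisons, with the lowest unadjusted p at 0.0151 for STAT6 in TNF plus apigenin against control (-0.67, adjusted p = 0.177). IRF4, IRF8 and STAT4 were under the filter on low values.

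Upstream of these factors, the ligand gene that rose was LIF, an interleukin 6 family cytokine that signals through STAT3. Its level was 6.87 ± 0.29 with TNF plus apigenin, 5.57 ± 0.09 with TNF, 5.21 ± 0.59 with apigenin and 4.57 ± 0.27 in control (SD, n = 3, 3, 2 and 3). LIF rose with TNF plus apigenin by 2.3 against control (adjusted p = 0.000113), by 1.3 against TNF (adjusted p = 0.0104) and by 1.66 against apigenin (adjusted p = 0.00653), the last of these being 1.24 and not called without apigenin 1 (adjusted p = 0.156). Without TNF plus apigenin 1 the call against TNF was lost. LIF was the only 1 of 6 tested ligand genes past the test in any comparison. That is 16.7% of the list, beside 1.04% of all genes higher against control, 0.384% against TNF and 0.529% against apigenin. The interferon genes IFNA1, IFNB1, IFNE, IFNK, IFNW1 and IFNG were under the filter on low values, as were IL6 and OSM.

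Of the receptor genes, 1 rose with TNF. IFNGR1, the ligand-binding chain of the interferon gamma receptor, was the 1 of 13 tested receptor genes that rose with TNF against control (7.33 ± 0.07 and 6.17 ± 0.12, SD, n = 3 each, change 1.16, adjusted p = 0.00179), which is 7.69% beside 0.473% of all genes. It also rose with TNF plus apigenin against control (6.99 ± 0.2, change 0.82, adjusted p = 0.0131), a call lost without control 2 or TNF plus apigenin 2. Against apigenin 3 of 13 receptor genes rose with TNF plus apigenin (23.1%, beside 0.529% of all genes), and 3 were called after the median shift. These were IFNGR1 (1.38, adjusted p = 0.00226), IFNGR2, the second chain of the same receptor (1.13, adjusted p = 0.0139), and IL6ST, the shared interleukin 6 family chain gp130 (1.12, adjusted p = 0.0214). Without apigenin 1, TNF plus apigenin 1 or TNF plus apigenin 2 only 1 receptor gene was called, and without apigenin 1 that was IFNGR1 (1.34, adjusted p = 0.0433). The list's median change in that comparison was 0.48, beside 0.16 over all genes. With apigenin against control 0 of 13 receptor genes passed (limma), with a median of -0.46 beside -0.18. An unadjusted p under 0.05 was found for 7 of the 13, beside 19.5% of all genes.

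Among 15 tested kinase, sensor and adaptor genes, IKBKE gave the largest response. IKBKE encodes the kinase IKK epsilon, which phosphorylates IRF3 and IRF7. It stood at 5.07 ± 0.24 with TNF plus apigenin, 6.03 ± 0.11 with TNF, 3.51 ± 0.27 with apigenin and 4.19 ± 0.24 in control (SD, n = 3, 3, 2 and 3). IKBKE rose with TNF against control by 1.84 (3.57-fold, adjusted p = 8.54e-05), and was lower with TNF plus apigenin than with TNF by -0.96 (adjusted p = 0.0216), a call kept in 6 of 11 fits that left out 1 array. With TNF plus apigenin it rose by 0.88 against control (adjusted p = 0.0221) and by 1.56 against apigenin (adjusted p = 0.00271).

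RIGI, a sensor of viral RNA, rose with TNF (1.09, adjusted p = 0.0293), so that 2 of 15 genes of this list passed (13.3%, beside 0.473% of all genes), and was not called without control 2, control 3, TNF 1 or TNF 2. With apigenin against control 3 of 15 fell (20%, beside 3.44% of all genes), the adaptors MAVS (-0.91, adjusted p = 0.0222) and STING1 (-0.93, adjusted p = 0.0197) and the RNA receptor TLR3 (-1.32, adjusted p = 0.00364), at a list median of -0.61 beside -0.18 over all genes. Without apigenin 1 only TLR3 was called (-1.36, adjusted p = 0.0401), and without control 3 also 1 of the 15. MAVS (-0.99, adjusted p = 0.00765) and STING1 (-0.87, adjusted p = 0.0145) also fell with TNF plus apigenin against control, where IKBKE and the adaptor TRAF3 (0.99, adjusted p = 0.0424) rose, so that 13.3% of the list was called in each direction beside 1.04% of all genes higher and 1.78% lower. Of these 4 calls, that of TRAF3 was lost in 6 of 11 fits that left out 1 array (each control array, TNF 3, TNF plus apigenin 1 and TNF plus apigenin 2), and also with no filter on low values. The IKBKE call was lost in 4 (control 2, control 3, TNF plus apigenin 1 and TNF plus apigenin 2), the STING1 call in 3 (control 3, TNF plus apigenin 1 and TNF plus apigenin 2) and the MAVS call in 0. Against apigenin 4 of 15 rose with TNF plus apigenin (26.7%, beside 0.529% of all genes, and 4 after the median shift), which besides IKBKE were TRAF3 (1.6, adjusted p = 0.0139), the RNA sensor IFIH1 (1.31, adjusted p = 0.0139) and RIGI (1.18, adjusted p = 0.0409), and only IKBKE of them stayed called without apigenin 1 (1.76, adjusted p = 0.0215).

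Negative regulators of JAK and STAT signalling gave no call. None of the 17 tested genes (SOCS family, CISH, PIAS family, protein tyrosine phosphatases and USP18) passed in any of the 6 comparisons by limma, with 0 to 4 at an unadjusted p under 0.05. Over all genes 7.41% to 19.5% had such a p. The lowest adjusted p was 0.0809, for SOCS4 in TNF plus apigenin against control (0.9).

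Of the genes that type I interferon induces through ISGF3, some fell with apigenin and few rose with TNF. With apigenin against control 9 of 32 tested genes fell (28.1%, beside 3.44% of all genes), at a list median of -0.58 beside -0.18. They included SAMD9 (-1.42), IFI44 (-1.39), XAF1 (-1.33) and IFI44L (-1.31), with adjusted p from 0.00305 to 0.0222. Both apigenin arrays of IFI44L, at 1.92 and 2.28, lay under the background of 2.53, so the size of its change rests on a level that was not measured above background. SAMD9 restricts poxviruses, XAF1 binds an inhibitor of apoptosis, and IFI44 and IFI44L are interferon-induced genes of related sequence. Without apigenin 1 fewer genes of the list were called, namely IFI44 (-1.47), IFI44L (-1.49) and SAMD9L (-1.16), the last named after its values were seen. In that fit the apigenin group is array apigenin 2 alone, on which SAMD9L read 2.17, under the background of 2.53. With all arrays SAMD9L changed by -0.84 (adjusted p = 0.0395), a call lost in 8 of 11 fits that left out 1 array. After the median shift of each array 5 of 32 were called.

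The same list was compared between cells given TNF with and without apigenin. With TNF plus apigenin against TNF 5 of 32 fell (15.6%, beside 0.681% of all genes), at a median of -0.47 beside 0.02. IFI44L stood at 2.53 ± 0.06 with TNF plus apigenin and 4.57 ± 0.41 with TNF (SD, n = 3 each), a change of -2.04 (adjusted p = 0.000279) to the level of background. IFI44 changed by -1.14 (adjusted p = 0.00709), and IFITM1, a membrane protein that blocks virus entry, by -0.88 (adjusted p = 0.0239). The IFITM1 call was lost in 6 of 11 fits that left out 1 array (each TNF array and each TNF plus apigenin array). The translation inhibitor IFIT1 averaged 1.98 ± 0.28 with TNF plus apigenin, under the background, and 3.06 ± 0.35 with TNF (SD, n = 3 each). The size of its change of -1.09 (adjusted p = 0.0308) therefore rests on a level not measured above background, and the call was lost in 4 of 11 fits that left out 1 array (TNF 1, TNF 3, TNF plus apigenin 2 and TNF plus apigenin 3). OAS1, which makes the activator of RNase L, changed by -0.84 (adjusted p = 0.0268) and was named after its values were seen. The OAS1 call was lost in 5 of 11 such fits (TNF 1, TNF 2 and each TNF plus apigenin array). The count was 2 without TNF plus apigenin 2 or TNF plus apigenin 3, and 8 or 9 after the median shift or quantile normalization.

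With TNF plus apigenin against control 5 of 32 fell (15.6%, beside 1.78% of all genes). IFITM1 averaged 5.08 ± 0.1 with TNF plus apigenin and 6.16 ± 0.22 in control (SD, n = 3 each), a change of -1.08 (adjusted p = 0.00349), and OAS1 changed by -0.95 (adjusted p = 0.00803). SAMD9 (-0.89), IFI44L (-0.88) and IFI44 (-0.87) followed, and the count was 2 without control 1, control 3, TNF plus apigenin 2 or TNF plus apigenin 3. The calls of SAMD9, IFI44L and IFI44 were each lost without control 1, control 3 or any TNF plus apigenin array. That of IFI44L was also lost without TNF 2. With TNF against control 1 of 32 rose (3.12%, beside 0.473% of all genes), IFI44L at 1.16 (adjusted p = 0.0191), a call lost without control 1, control 2, TNF 1 or TNF 2. With TNF plus apigenin against apigenin 0 of 32 passed by limma, with a median of 0.46 beside 0.16. An unadjusted p under 0.05 was found for 14 of the 32, beside 15.7% of all genes.

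Of the genes that answer to IRF1 and interferon gamma, CXCL10, GBP1 and ICAM1 rose with TNF and with TNF plus apigenin against control. That was 3 of 16 tested genes in each comparison (18.8%, beside 0.473% and 1.04% of all genes). CXCL10, a T-cell chemokine that NF-kB also induces, stood at 5.33 ± 0.11 with TNF plus apigenin, 7.33 ± 0.2 with TNF, 2.44 ± 0.26 with apigenin and 2.42 ± 0.21 in control (SD, n = 3, 3, 2 and 3), so without TNF it lay at background. GBP1, a guanylate-binding protein, rose by 1.7 with TNF (adjusted p = 0.00373) and by 1.23 with TNF plus apigenin (adjusted p = 0.0195), each against control. ICAM1, an adhesion molecule and also an NF-kB target, rose by 1.67 (adjusted p = 0.000457) and 1.5 (adjusted p = 0.00105) in the same comparisons. GBP1 was not called with TNF plus apigenin against control without TNF plus apigenin 1 or TNF plus apigenin 2. Both GBP1 calls against control were lost with only the groups compared. GBP1 read 2.5 on control 2 and 2.61 and 2.53 on the apigenin arrays, close to the background of 2.53. On control 1 and control 3 it read 3.66 and 3.74. The sizes of its changes against control and against apigenin therefore rest in part on levels not measured above background.

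With TNF plus apigenin against TNF, 1 of these 16 genes fell (6.25%, beside 0.681%), CXCL10 by 2.01 on the log2 scale (adjusted p = 8.63e-05). With apigenin against control 2 of 16 fell (12.5%, beside 3.44%). GBP2 stood at 3.77 ± 0.49 with apigenin (SD, n = 2) and 5.9 ± 0.15 in control (SD, n = 3), a change of -2.13 (adjusted p = 0.000354), and GBP3 changed by -1.42 (adjusted p = 0.00236). Both were called without apigenin 1, at -1.78 (adjusted p = 0.011) and -1.37 (adjusted p = 0.0385), and GBP3 was not called with the mean of its probe sets. With TNF plus apigenin against apigenin 6 of 16 rose (37.5%, beside 0.529%), at a median of 0.75 beside 0.16 over all genes. The 4 largest were CXCL10 (2.88), GBP1 (1.96), ICAM1 (1.63) and GBP2 (1.61), and without apigenin 1 only CXCL10 was called (2.7, adjusted p = 0.000214).

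**Figure D5:**
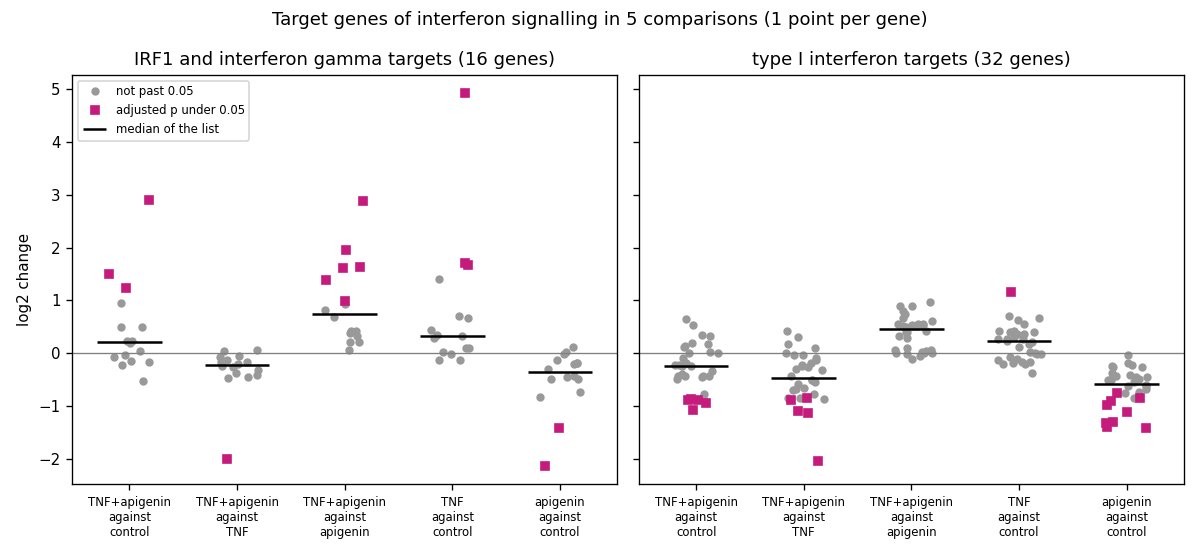
log2 change (y axis) of 16 IRF1 and interferon gamma target genes (left) and 32 type I interferon target genes (right) in 5 comparisons (x axis). Points are genes, squares have an adjusted p under 0.05, and black lines are list medians. In the type I list 9 genes are called lower for apigenin against control and 5 for TNF plus apigenin against TNF, with medians of -0.58 and -0.47.

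Genes known as STAT3 or STAT5 targets gave few calls. Of 14 tested STAT3 targets, FOS, an immediate early transcription factor that serum and growth factors also induce, fell in 3 comparisons. FOS averaged 5.03 ± 0.41 with TNF plus apigenin, 5.38 ± 0.09 with TNF, 5.1 ± 0.24 with apigenin and 6.36 ± 0.22 in control (SD, n = 3, 3, 2 and 3). Against control its change was -1.33 with TNF plus apigenin (adjusted p = 0.00266), -0.98 with TNF (adjusted p = 0.0477, called in 4 of 11 fits that left out 1 array) and -1.26 with apigenin (adjusted p = 0.00996, or -1.09 and 0.124 without apigenin 1). CCND1, which encodes cyclin D1, rose by 0.91 with TNF plus apigenin against control (adjusted p = 0.0217), and was not called without control 2, control 3, TNF plus apigenin 1 or TNF plus apigenin 2. The list median in that comparison was 0, beside -0.02 over all genes. For CCND1, 1 of 14 genes higher is 7.14%, beside 1.04% of all genes. For FOS, 1 of 14 genes lower is also 7.14%. Beside it, 0.227% of all genes were lower with TNF, 3.44% with apigenin and 1.78% with TNF plus apigenin.

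Of 6 tested STAT5 targets, BCL6, a transcriptional repressor that STAT5 is known to lower in lymphoid cells, was the 1 that passed. It stood at 6.42 ± 0.23 with TNF plus apigenin, 6.93 ± 0.18 with TNF, 6.33 ± 0.2 with apigenin and 7.47 ± 0.1 in control (SD, n = 3, 3, 2 and 3). BCL6 fell by 1.05 on the log2 scale with TNF plus apigenin against control (adjusted p = 0.00451) and by 1.14 with apigenin against control (adjusted p = 0.00631). In each case 1 of 6 is 16.7%, beside 1.78% of all genes lower with TNF plus apigenin and 3.44% with apigenin. The apigenin call was lost without apigenin 1 (-1, adjusted p = 0.0838).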

How the data were processed

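Expression was measured with GeneChip Human Gene 2.1 ST arrays on 11 RNA samples. The deposited values are log2 levels of 53617 probe sets. Per the submitters' processing notes the authors used Affymetrix Expression Console. The sources used here give no version, algorithm, scaling or genome build for it, and the log base was inferred from the range, 0.38 to 12.31. Groups came from the sample titles. Of the probe sets, 25713 were listed in the platform annotation, 23871 with 1 gene symbol, 1842 with several, and the other 27904 are unnamed here. Of those with 1 symbol, 22569 matched RefSeq (GRCh38.p14) by gene number, giving 22395 genes. Genes entered the tests when 2 or more arrays reached 2.53, the median of the probe set means. A model with 1 mean per group was fitted by lmFit and eBayes of limma 3.58.1 (R 4.3.3; two-sided, Benjamini-Hochberg over 15865 genes, adjusted p under 0.05), after it was tested on simulated data. The precision is limited by the number of arrays. Gene lists were named in full or by their called genes, at most 4 higher and 4 lower per comparison, and a list without a call by its lowest p. The genes and lists were chosen with earlier results of these data known. Alternatives covered scaling, array weights, the filter, the probe set, the variance prior, the samples, a replicate block and left-out arrays. The second IRF9 probe set, and the lists under each alternative, were added after seeing the data.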

Additional observations from a re-analysis of the deposited data

Results flagged for a closer look

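The response of CXCL10 to TNF differed with and without apigenin. TNF plus apigenin against apigenin was 2.88 and TNF against control 4.92 on the log2 scale, a difference of -2.03 (SE 0.27, limma interaction term, adjusted p = 0.0183). The call was lost in 7 of 11 fits that each left out 1 array (without control 3, TNF 1, TNF 2, apigenin 2 or any TNF plus apigenin array), with differences of -2.22 to -1.85, and it was also lost with the replicate number as a block (-2, adjusted p = 0.0531). CXCL10 lay at background in both groups without TNF. Beside it, 0 of the 7 IRF and STAT genes passed the interaction term.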

How the results depend on the processing

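On the number of IRF and STAT genes called, apigenin against control went to 0 under quantile normalization, the median shift, array weights, no filter, the mean of probe sets, the trend and robust prior, only the groups compared, and with control 2 and apigenin 1 left out, and was 0 to 2 with single arrays left out. TNF plus apigenin against control gave 3 under quantile normalization, 2 under the median shift and array weights, 0 with the mean of probe sets or both arrays out, and 0 to 1 with single arrays left out. TNF plus apigenin against TNF gave 2 under quantile normalization and the median shift and 1 with array weights, and TNF plus apigenin against apigenin 0 to 1 with single arrays out. Over all genes, TNF against control called 111, and 186, 182, 221 and 70 under quantile normalization, median shift, array weights and both arrays out (60 to 128 with single arrays out). Apigenin against control called 581, and 207 with array weights, 103 with only the groups compared and 119 with both out (84 without apigenin 1, 1290 without apigenin 2). TNF plus apigenin against control called 447, and 1233, 998 and 1197 under quantile normalization, median shift and array weights (206 to 538). TNF plus apigenin against TNF called 169, and 510, 452 and 391 under the same (85 to 197), and against apigenin 91, and 32 with array weights, 16 with only the groups compared and 26 with both out (18 without apigenin 1, 598 without apigenin 2). The interaction called 4, and 7 under quantile normalization, 10 under median shift, 8 with the trend and robust prior and 0 with the replicate block (0 to 7). The cause of these moves was not tested.

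Compared with the fit of all arrays on the deposited values, signs turned only for changes called neither there nor under the other setting. Apigenin against control turned for IRF2 under quantile normalization (0.13), median shift (0.02) and both arrays out (0.05), for IRF3 under the first 2 (0.1 and 0.08), and for STAT5A with both out (-0.09). The interaction turned under quantile normalization, median shift and both out for IRF9 (-0.22, -0.22 and -0.13) and STAT3 (-0.21, -0.25 and -0.08), and for IRF3 with array weights (0.13) and the replicate block (0.04). With both out, IRF7 in TNF plus apigenin against control (-0.07) and STAT5A against apigenin (0.21) turned, as did IRF9 against apigenin with the replicate block (0.01). The other IRF9 probe set gave 0.02 for TNF against control and -0.02 for the interaction.

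With single arrays left out, ranges that cross 0 were -0.5 to 0.12 for IRF2, -0.37 to 0.1 for IRF3 and -0.03 to 0.95 for STAT5A in apigenin against control, -0.31 to 0.11 for IRF3 in TNF against control, and -0.07 to 0.18 for IRF7 in TNF plus apigenin against control. They were -0.37 to 0.11 for IRF3, -0.23 to 0.05 for IRF9 and -0.76 to 0.21 for STAT5A in TNF plus apigenin against apigenin, and -0.26 to 0.22 for IRF3, -0.13 to 0.16 for IRF9 and -0.18 to 0.2 for STAT3 in the interaction.

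Same-numbered arrays of different groups correlated at -0.24 to 0.28 over 15 pairs, 4 of them above 0.1. Differently numbered arrays did so at -0.39 to 0.19 over 30 pairs, 8 of them above 0.1. These are not correlations of the levels themselves, which lay at 0.969 to 0.987 within groups. The ranges of same-numbered and differently numbered pairs overlapped. With so few arrays a group, this cannot settle whether the replicate numbers pair the arrays. The arrays were treated as unpaired except with the replicate block. With the replicate block, IRF9 changed by -0.86 for apigenin against control (adjusted p = 0.0372) and -0.85 for TNF plus apigenin against control (adjusted p = 0.0246), and the block changed no count of IRF and STAT genes called. The remaining settings, a filter on the gene mean among them, kept these counts and those of all genes within 1.5 times. Of 64 calls among genes of the pathway lists, 19 stood in every setting run, 24 in all fits that left out 1 array, and 21 were lost without apigenin 1.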
